A study of Saccharomyces cerevisiae with 4 samples.

Results

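PHO81, SPL2, PHO4, PHO2, PHO80 and PHO85 are the genes of the budding yeast phosphate (PHO) pathway whose products sense phosphate, pass the signal on or switch the pathway's genes. They were taken by name and are 6 of the 6002 nuclear protein-coding genes in the reference annotation. A gene was said to have a peak when a called binding interval overlapped its body or the 1000 bp upstream of its start by at least 1 bp, a span called the window here. With this rule, Pho4 had a peak at 5 of the 6 genes in every list that covered them, and PHO2 was the gene without one. The same held for 42.5% of all covered genes. PHO80 and PHO85 were covered by 1 Pho4 list each. When a peak's highest position had to lie in the window, the Pho4 count was 4 of 6. In that case both Pho4 lists had a peak at 37% of the genes they both covered. Cbf1 lists covered 4 of the genes, and 3 of these had a Cbf1 peak in every covering list, beside 36.1% of all covered genes.

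In this pathway the cyclin Pho80 and the cyclin-dependent kinase Pho85 phosphorylate the transcription factor Pho4 when phosphate is plentiful, which keeps Pho4 out of the nucleus. The inhibitor Pho81 blocks the kinase when phosphate runs short, so that Pho4 enters the nucleus and acts together with the homeodomain protein Pho2. Spl2 is a small protein related to Pho81 that is known to lower the use of low-affinity phosphate transporters, and both PHO81 and SPL2 are known as genes that phosphate starvation switches on.

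The series mapped the binding of Pho4 and of Cbf1, basic helix-loop-helix factors that both recognise the E-box CACGTG, by ChIP-nexus, in which an exonuclease trims precipitated DNA up to the crosslinked protein. The Pho4 libraries came from strain W303 Z1441 with the allele PHO4::9myc::TRP1, and the Cbf1 libraries from strain W303 Z1497 with CBF1::9myc::TRP1. There were 2 libraries of each factor. All 4 were precipitated with the antibody ab9E10, which recognises the Myc tag, and the labels give the same handling for all of them. Cultures of 50 ml grew in YPD at 25 °C, spent 2 h without phosphate and were fixed with 1% formaldehyde for 15 min. Each tagged strain carried its tag in the factor's own gene, so PHO4 itself was altered in the Pho4 strain and not in the Cbf1 strain. The labels do not give the end of the protein that bears the tag, or whether the replicates were separate cultures. Samples of input DNA, of an untagged strain or of cells with phosphate were not used here. With 2 libraries per factor, the smallest p that an exact permutation test (two-sided) can give is 0.33, so values of the factors are set side by side and no difference between them was tested.

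The Pho4 lists held 2005 (replicate 1) and 2190 (replicate 2) nuclear peaks, and the Cbf1 lists 920 and 1566. Chromosomes followed each other in the text order of their names, and the lists ended at different places: on chromosome XIV, XVI, VII and XIV, in the same order of lists. A gene past the end of a list was not analysed in that list, which leaves 4620, 5996, 2508 and 4584 genes. PHO4 and PHO2 were covered by all 4 lists, PHO81 and SPL2 by both Pho4 lists and Cbf1 replicate 2, and PHO80 and PHO85 by Pho4 replicate 2 alone. This gives 16 pairs of a gene and a list, of which 12 had a peak. A peak was common at any gene: it was present at 50% and 45.6% of all covered genes in Pho4 replicates 1 and 2, and at 39.7% and 40.4% in Cbf1 replicates 1 and 2. Both Pho4 lists had a peak at 41% of genes covered by both, and both Cbf1 lists at 32.8%. Having a peak is therefore a weak description of a gene, and the height, place and sequence of the peaks are given below for each one.

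The sequences under the summits that the results turn on are given first, from the R64 reference of strain S288C, on the gene's own strand. W303 may differ from it at single bases, and PHO4 in the Pho4 strain also carries the tag cassette, which the reference lacks. Distances at PHO4 are those in the reference. Capitals mark CACGTG and its form with a last T, CACGTT, which reads AACGTG on the other strand. A summit is the highest position of a peak. The PHO81 stretch is centred on the mean of the Pho4 summits. The first SPL2 stretch ends 60 bp before the start. It holds the summit of Pho4 replicate 1 and the cores 87 and 144 bp upstream, and leaves out the core at 28 bp and the summit of replicate 2. The second is centred on the Cbf1 summit. The PHO4 stretch surrounds the core at the stop codon, and the PHO80 stretch is centred on the only summit of that window.
PHO81 chrVII:958484-958604 (-): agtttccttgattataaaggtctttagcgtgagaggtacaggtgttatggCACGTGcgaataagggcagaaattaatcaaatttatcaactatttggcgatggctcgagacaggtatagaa
SPL2 at the summit of Pho4 replicate 1 chrVIII:375160-375280 (-): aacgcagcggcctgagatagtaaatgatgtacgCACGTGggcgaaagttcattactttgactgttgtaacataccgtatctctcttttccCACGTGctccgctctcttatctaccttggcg
SPL2 at the Cbf1 summit chrVIII:375424-375544 (-): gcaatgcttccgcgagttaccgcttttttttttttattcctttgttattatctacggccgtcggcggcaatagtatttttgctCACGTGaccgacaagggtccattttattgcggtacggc
PHO4 at the stop codon chrVI:224993-225054 (-): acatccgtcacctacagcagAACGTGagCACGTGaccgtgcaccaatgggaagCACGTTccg
PHO80 chrXV:324722-324842 (+): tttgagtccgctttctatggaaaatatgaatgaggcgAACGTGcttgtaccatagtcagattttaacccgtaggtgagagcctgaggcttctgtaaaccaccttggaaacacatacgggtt

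PHO81, the gene of the kinase inhibitor, lies on the minus strand of chromosome VII at 954674 to 958210. In Pho4 replicate 1 the peak's summit stood 338 bp upstream of the start, with an authors' fold enrichment over local background of 26.6, rank 27 of 2005 peaks. In Pho4 replicate 2 the summit stood 331 bp upstream with a fold of 24.7, rank 41 of 2190. In Cbf1 replicate 2 it stood 321 bp upstream with a fold of 6.54, rank 247 of 1566. All 3 lists thus placed a summit at the same upstream site, and the Pho4 summits were 7 bp apart and 17 and 10 bp from the Cbf1 summit. Folds are the authors' own value for each peak and can be ranked only within a list.

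Summit height, the number of reads piled up at a summit, was solved from each peak's fold and p-value. At PHO81 it was 1865 (95% Poisson interval 1781 to 1952) and 863 (806 to 923) in Pho4 replicates 1 and 2, over local backgrounds of 69.2 and 34. In Cbf1 replicate 2 it was 204 (177 to 234) over 30.3. The intervals cover counting error only. The median peak of the lists had a height of 72, 45, 65 and 50, so PHO81 stood far above the middle of each list that covered it. Of all covered genes, 0.909% and 1.07% had a peak at least as high in fold in Pho4 replicates 1 and 2, and 9.93% in Cbf1 replicate 2.

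The PHO81 window held 1 CACGTG, at chromosome VII 958549 to 958554 and 341 bp upstream, centred 3.5 and 10.5 bp from the Pho4 summits and 20.5 bp from the Cbf1 summit. Neither strand of this core had a T directly 5′ of it. A core has no T flank here when that holds for both strands. Over all cores within reach of each list, 73.1% and 72.7% of those without a T flank had a Pho4 summit within 50 bp in replicates 1 and 2, against 24.7% and 29.4% with a Cbf1 summit. Of cores with a T flank on 1 or both strands, 40.2% and 40.4% had a Pho4 summit and 49.8% and 56.4% a Cbf1 summit. The PHO81 core was thus of the kind that Pho4 lists held more often than Cbf1 lists, and the Cbf1 list had a peak at it as well. CACGTT occurred 5 bp upstream of the start and once in the body, with no summit within 50 bp of either.

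A second Pho4 peak, low by fold, reached into the far end of the PHO81 window. Its summit stood 978 bp upstream in replicate 1, with a fold of 1.86 and a height of 129, and 1029 bp upstream in replicate 2, with a fold of 2.73 and a height of 94. By height these peaks ranked 508 of 2005 and 455 of 2190, above the list medians. Neither motif lay within 50 bp of these summits, which were nearer to the start of YHB1, the flavohemoglobin gene, at 716 and 665 bp.

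SPL2, the gene of the Pho81-like protein, lies on the minus strand of chromosome VIII at 374654 to 375100. Its Pho4 peak had a fold of 42.3 in replicate 1, rank 2 of 2005, and of 38.2 in replicate 2, rank 5 of 2190. By summit height it was the peak of rank 1 in replicate 1, at 10466 (10266 to 10668), and of rank 2 in replicate 2, at 3674 (3556 to 3795). Only 4 genes in replicate 1 and 7 in replicate 2, SPL2 included, had a peak of at least this fold, which is 0.0866% and 0.117% of covered genes. A peak counts for each gene whose window it overlaps, so the SPL2 peak also counts for the neighbouring genes YCK1 and ARO9. SPL2 thus carried one of the strongest Pho4 peaks of either list. In Cbf1 replicate 2 the fold was 8.83, rank 181 of 1566, and the height 425 (386 to 467).

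The factors' summits at SPL2 did not coincide. The Pho4 summits lay 84 and 56 bp upstream of the start, and the Cbf1 summit 384 bp upstream, so the Cbf1 summit was 300 and 328 bp from the Pho4 summits. The Cbf1 interval was 1399 bp wide, from 374635 to 376033, and spanned both Pho4 intervals whole. The upstream sequence held 4 CACGTG cores, 28, 87, 144 and 358 bp from the start. The first 3 had no T flank, and the core at 358 bp had a T directly 5′ of it on both strands. The summit of Pho4 replicate 1 was 3.5 bp from the core at 87 bp, and that of replicate 2 lay between the cores at 28 and 87 bp, 27.5 and 31.5 bp from them. The Cbf1 summit was 25.5 bp from the core with T flanks and 239.5 to 355.5 bp from the other 3. Both Pho4 summits were far from the core with T flanks, at 274.5 and 302.5 bp. At SPL2 each factor's summit thus stood by cores of the flank type at which its lists held summits more often. This rests on 1 gene and 1 Cbf1 library. The Cbf1 summit was also nearer to the start of ARO9, an aromatic aminotransferase gene transcribed away from SPL2, at 225 bp, and the Pho4 summits were 525 and 553 bp from it.

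**Figure D1:**
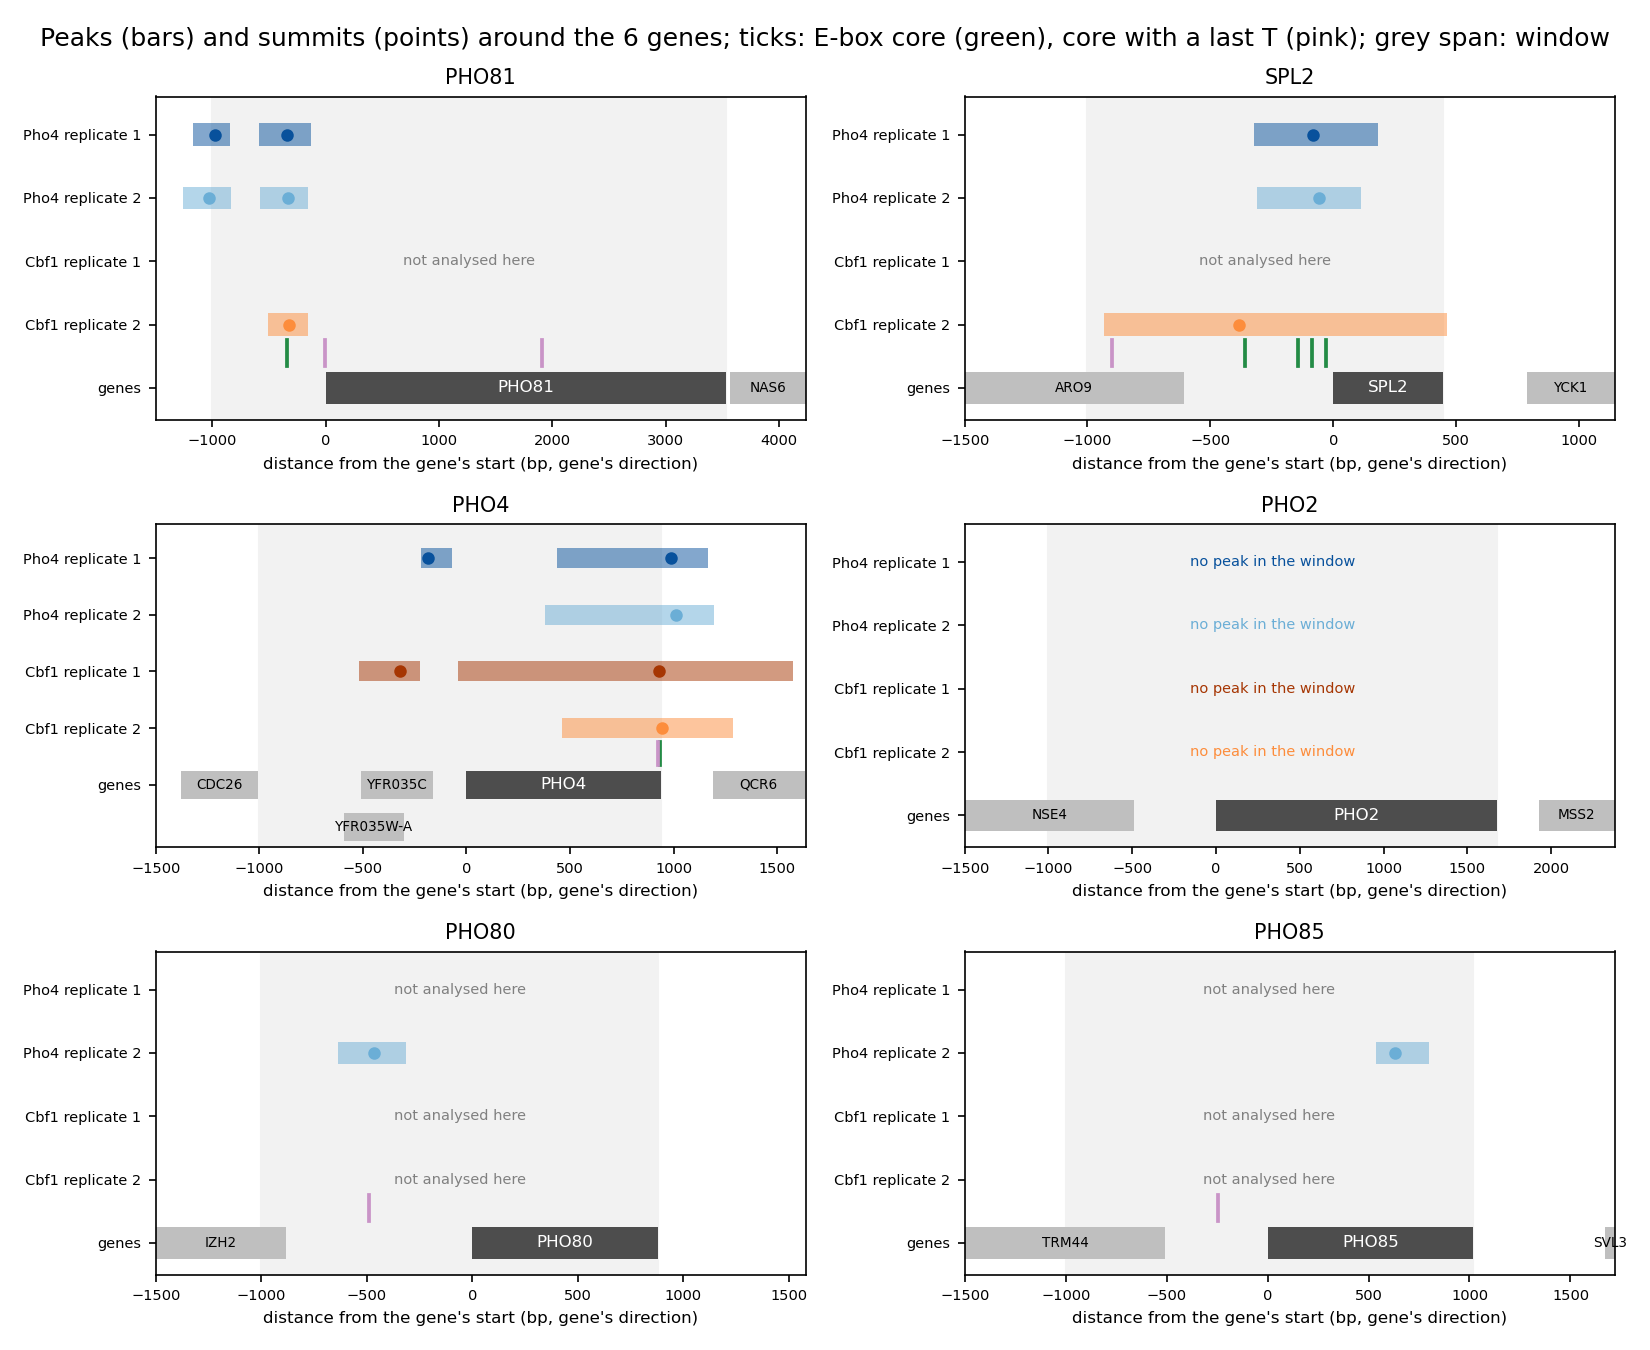
Each panel is 1 gene, with distance from the gene's start in bp on the x axis and, from top to bottom, the peaks (bars) and summits (points) of the 4 lists, the motifs of the window (ticks) and the annotated genes. At SPL2 the Cbf1 summit, 384 bp upstream, stands by the farthest upstream green tick, away from the Pho4 summits 84 and 56 bp upstream, and at PHO4 the main summits of all 4 lists lie at the gene's end.

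PHO4, the gene of the factor itself, lies on the minus strand of chromosome VI at 225020 to 225958. All 4 lists had a peak over it, and in all 4 the main summit stood at the gene's 3′ end. It lay 51 and 72 bp past the gene's end in Pho4 replicates 1 and 2, 10 bp inside the body in Cbf1 replicate 1 and 8 bp past the end in Cbf1 replicate 2. The fold was 13.1, rank 119 of 2005, in Pho4 replicate 1 and 9.4, rank 270 of 2190, in Pho4 replicate 2. It was 12, rank 12 of 920, in Cbf1 replicate 1 and 22.2, rank 27 of 1566, in Cbf1 replicate 2. PHO4 thus ranked nearer to the top in the Cbf1 lists than in the Pho4 lists, with 0.917% and 1.09% of covered genes at least as high for Cbf1 and 4.42% and 7.44% for Pho4. The order of PHO81 was the opposite: its fold percentile was 98.7 and 98.2 in the Pho4 lists and 84.3 in Cbf1 replicate 2.

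By summit height the Cbf1 peaks at PHO4 ranked 4 and 13 of their lists, at 1376 (1304 to 1451) and 1746 (1665 to 1830). The Pho4 peaks ranked 86 and 157, at 629 (581 to 680) and 243 (213 to 276). Summits of the same factor were 21 bp apart for Pho4 and 18 bp for Cbf1, and between the factors 43 to 82 bp apart, so the distances within a factor were smaller than those between factors. Only the Pho4 strain carried the tag cassette in this gene, and its part in the Pho4 values was not tested.

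The sequence at the end of PHO4 held 3 motifs close together. A CACGTG at 225021 to 225026 shares 2 bases with the TGA stop codon at 225020 to 225022 and has a T flank on 1 strand. A CACGTT stood on either side, at 225029 to 225034 in the body and at 224996 to 225001 past the stop codon. The CACGTG was 6.5 and 11.5 bp from the Cbf1 summits and 54.5 and 75.5 bp from the Pho4 summits. The downstream CACGTT was nearer to the Pho4 summits, at 29.5 and 50.5 bp. The start nearest to all 4 main summits was not that of PHO4 but that of QCR6, a subunit gene of respiratory complex III whose start lies downstream of PHO4 on the same strand. The summits were 200 and 179 bp (Pho4) and 261 and 243 bp (Cbf1) upstream of the QCR6 start. A peak list does not say which of the neighbouring genes a peak acts on.

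Upstream of PHO4, each replicate 1 held 1 summit within 1000 bp of the start and neither replicate 2 held any. The main interval of Cbf1 replicate 1, 224384 to 225998, also reached past the start into the upstream sequence. The upstream Pho4 summit was at 184 bp, with a fold of 1.76 and a height of 82, and the Cbf1 summit at 320 bp, with a fold of 1.54 and a height of 169. Both lay within YFR035C, and neither had a motif within 50 bp. By fold they were among the lowest peaks of their lists, at percentiles 0.948 and 1.52. By height they ranked 869 of 2005 and 121 of 920, above the list medians. No CACGTG or CACGTT lay in the 1000 bp upstream of PHO4.

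PHO2, the gene of Pho4's homeodomain partner, lies on the minus strand of chromosome IV at 270222 to 271901. It was covered by all 4 lists and had no peak in any of them. Of the 2508 genes covered by all 4 lists, 876 (34.9%) had no peak in any list, PHO2 among them, and 23.3% had a peak in each. Its window of 2680 bp, longer than the median window of 2200 bp, held neither CACGTG nor CACGTT. The nearest peaks had summits 2060 and 2059 bp (Pho4) and 2037 and 2064 bp (Cbf1) upstream of the PHO2 start, inside the body of QRI7. Those peaks were high, with folds of 34.8 and 36.1 for Pho4 and 4 and 8.44 for Cbf1, but NSE4 stands between them and PHO2.

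PHO80, the cyclin gene, lies on the plus strand of chromosome XV at 325249 to 326130 and was covered by Pho4 replicate 2 alone. That list had a peak with its summit 467 bp upstream, a fold of 8.38, rank 322 of 2190, and a height of 106 (87 to 128) over a background of 11.8. Of all covered genes, 8.74% had a peak at least as high in fold. The window held no CACGTG and 1 CACGTT, at 324759 to 324764, which was 487 bp upstream and 20.5 bp from the summit. The summit stood between PHO80 and the divergent gene IZH2, a membrane protein gene of zinc and lipid metabolism, and was nearer to the IZH2 start, at 418 bp.

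PHO85, the kinase gene, lies on the minus strand of chromosome XVI at 492018 to 493037 and was likewise covered by Pho4 replicate 2 alone. Its peak was low and lay inside the body, 633 bp from the start, with a fold of 2.7, rank 1653 of 2190, and a height of 33 (23 to 46) over 11.6. Of all covered genes, 38.6% had a peak at least as high in fold. No motif lay within 50 bp of the summit, and the CACGTT of the window, 244 bp upstream of the start, was 877.5 bp from the summit. The peak lists of Pho4 replicate 1 and of both Cbf1 replicates ended before PHO80 and PHO85, so no other list can be set beside these values.

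**Figure D2:**
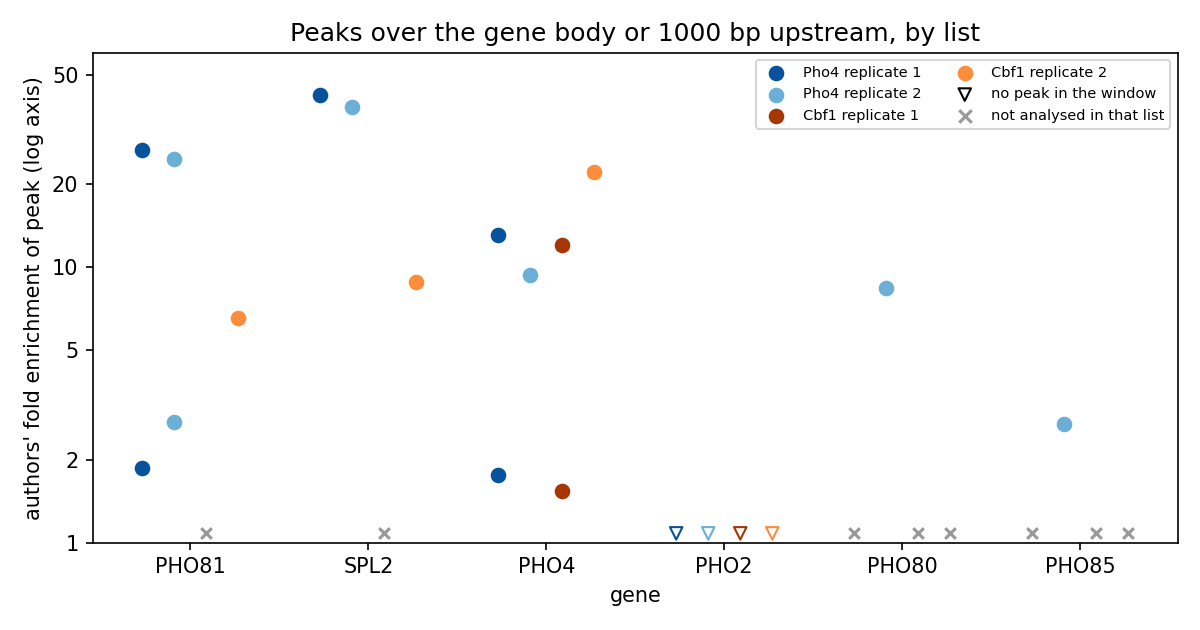
The authors' fold enrichment (log axis) of every peak that overlaps the body or 1000 bp upstream of each gene, 1 point per peak and coloured by list; triangles mark a list with no peak in the window and crosses a list that does not cover the gene. SPL2 and PHO81 have their highest folds in the Pho4 lists (42.3 and 38.2, 26.6 and 24.7), PHO4 has peaks in all 4 lists, and PHO2 has none.

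**Figure D3:**
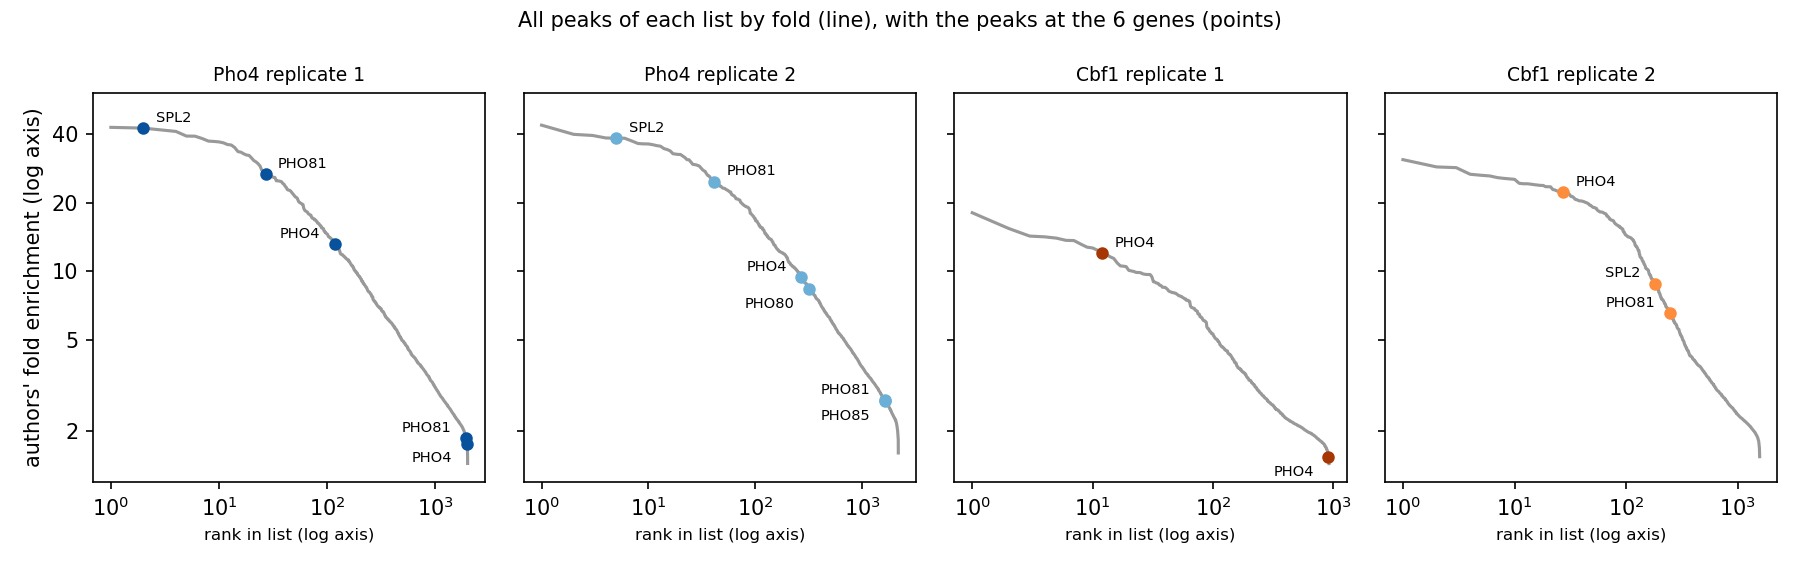
All peaks of each list in order of the authors' fold (grey line; both axes are log), with the peaks at the 6 genes as labelled points. In the Pho4 lists SPL2 (ranks 2 and 5) and PHO81 (ranks 27 and 41) stand near the top, and in the Cbf1 lists PHO4 does (ranks 12 and 27), while PHO85 and the second peaks of PHO81 and PHO4 stand in the lower part, from rank 1628 of 2190 (PHO81, Pho4 replicate 2) to rank 1987 of 2005 (PHO4, Pho4 replicate 1).

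Among the genes' 16 peaks, 10 had CACGTG or CACGTT within 50 bp of the summit. These 10 lay at PHO81, SPL2, PHO4 and PHO80, and peaks of different lists at the same gene are not independent. Over all peaks, 34.1% and 37% had either motif in Pho4 replicates 1 and 2, and 20.5% and 25.4% in Cbf1 replicates 1 and 2. Of the 6 peaks without a motif, 5 were those of low fold described above, namely the second peaks at PHO81, the upstream peaks at PHO4 and the peak at PHO85. The other was the PHO4 peak of Pho4 replicate 2, whose summit missed the window of 50 bp by 0.5 bp. In the 1000 bp upstream of the start, CACGTG was present in 10.8% of all 6002 genes and in 2 of these 6, PHO81 and SPL2. CACGTT was present in 28.5% of all genes and upstream of PHO81, SPL2, PHO80 and PHO85. The genes with a CACGTG upstream were those with Pho4 ranks near the top.

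Counting only summits within 500 bp upstream of the start gave a narrower picture. Over all genes this applied to 25.8% and 23.2% in Pho4 replicates 1 and 2 and to 14.8% and 13% in Cbf1 replicates 1 and 2, and to 19.1% and 9.97% in both lists of Pho4 and of Cbf1. PHO81, SPL2 and PHO80 met it in every Pho4 list that covered them, and PHO81 and SPL2 in Cbf1 replicate 2. PHO4 met it only through the upstream peaks of low fold of both replicates 1. PHO2 and PHO85 did not meet it in any list.

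The 6 genes were set beside 25 further genes, called signalling genes here, and beside a list of 17 genes called effectors here. The name of the first list is a label, and a role of each of its genes in phosphate signalling was not examined. The effectors are genes of phosphate uptake, storage and release and CTF19, a kinetochore gene counted through the peak it shares with VTC3. That shared peak counts for both genes. The lists were chosen with earlier results of these data known, so the effector count and median are no independent yardstick for the 6 genes. Pho4 had a peak in every covering list at 13 of the 25 signalling genes (52%), at 17 of the 17 effectors and at 42.5% of all covered genes. The 13 were PCL1, PCL2, PCL5, CLG1, PLC1, ARG82, KCS1, VIP1, DDP1, PSE1, PHO23, INO80 and CBF1. The other 12 were PCL6, PCL7, PCL8, PCL9, PCL10, IPK1, MSN5, PHO92, SNF2, GCN5, BAS1 and SWI5. Among genes covered by both Pho4 lists, both had a peak at 9 of 19 signalling genes and 14 of 14 effectors, beside 41% of all genes. With the summit rule of 500 bp the counts were 8 of 25 signalling genes (32%) and 15 of 17 effectors (88.2%), beside 20.3% of all genes. The share of signalling genes thus lay moderately above that of all genes by either rule, and the difference was not tested. The median of a gene's mean fold percentile over Pho4 lists, with 0 for a gene without a peak, was 88.1 for the 6 genes, 27.4 for the signalling genes, 99.1 for the effectors and 5.81 for all genes. By this measure the 6 genes stood between the effectors and the other signalling genes, with SPL2 and PHO81 at the effectors' level and PHO85 and PHO2 far under it. The median of the 6 genes lies between PHO4 (90.9) and PHO80 (85.3), whose main summits were nearer to the starts of QCR6 and IZH2. This placing thus rests on peaks that may belong to neighbouring genes, and PHO80 was covered by 1 Pho4 list.

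The effectors at which Pho4 had peaks were PHO5, PHO8, PHO11, PHO12, PHO84, PHO86, PHO89, GIT1, GDE1, VTC1, VTC2, VTC3, VTC4, PHM6, PHM8, GPP2 and CTF19. The highest were VTC3, a subunit gene of the polyphosphate polymerase, and its divergent neighbour CTF19, which share 1 peak with a fold of 39.3 in Pho4 replicate 2. GIT1, a glycerophosphoinositol transporter gene, followed with folds of 39.1 and 38.3. The SPL2 folds of 42.3 and 38.2 lie in the same range.

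Of the signalling genes, those with the highest Pho4 percentiles were KCS1, DDP1 and PCL5. KCS1, the gene of an inositol hexakisphosphate kinase, had folds of 39 and 39.8 with summits 427 and 398 bp inside its body, and Cbf1 folds of 2 and 3.37. DDP1, the gene of a phosphatase of inositol pyrophosphates and polyphosphate, had a fold of 34.1 in Pho4 replicate 2, the only list that covered it, 152 bp upstream. PCL5, another cyclin gene of Pho85, had folds of 33.2 and 30.8 with summits 813 and 816 bp upstream, and a Cbf1 fold of 13.7 in replicate 2. All 3 ranked above the PHO80 and PHO85 peaks. CBF1, the gene of the other factor, had Pho4 folds of 4.28 and 5.35 and a Cbf1 fold of 4.25 in replicate 2.

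Cbf1 had a peak in every covering list at 3 of the 4 covered pathway genes (PHO81, SPL2 and PHO4), at 8 of 19 covered signalling genes, at 10 of 14 covered effectors and at 36.1% of all covered genes. The signalling genes were PCL5, PCL10, ARG82, KCS1, VIP1, PSE1, BAS1 and CBF1. With the summit rule of 500 bp the counts were 2 of 4, 4 of 19 and 8 of 14, beside 11.2% of all genes. Of the 8 signalling genes, PCL5, VIP1, PSE1, BAS1 and CBF1 were covered by Cbf1 replicate 2 alone. Of signalling genes covered by both Cbf1 lists, 3 of 13 had a peak in both, below the 32.8% of all genes. For the pathway genes this was 1 of 2, and for the effectors 7 of 10. The effectors without a Cbf1 peak in every covering list were PHO5, PHO11, PHO12 and PHO89. The median of the mean fold percentile over Cbf1 lists was 86.4 for the 4 genes, 10.7 for signalling genes, 80.1 for effectors and 0 for all genes.

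**Figure D4:**
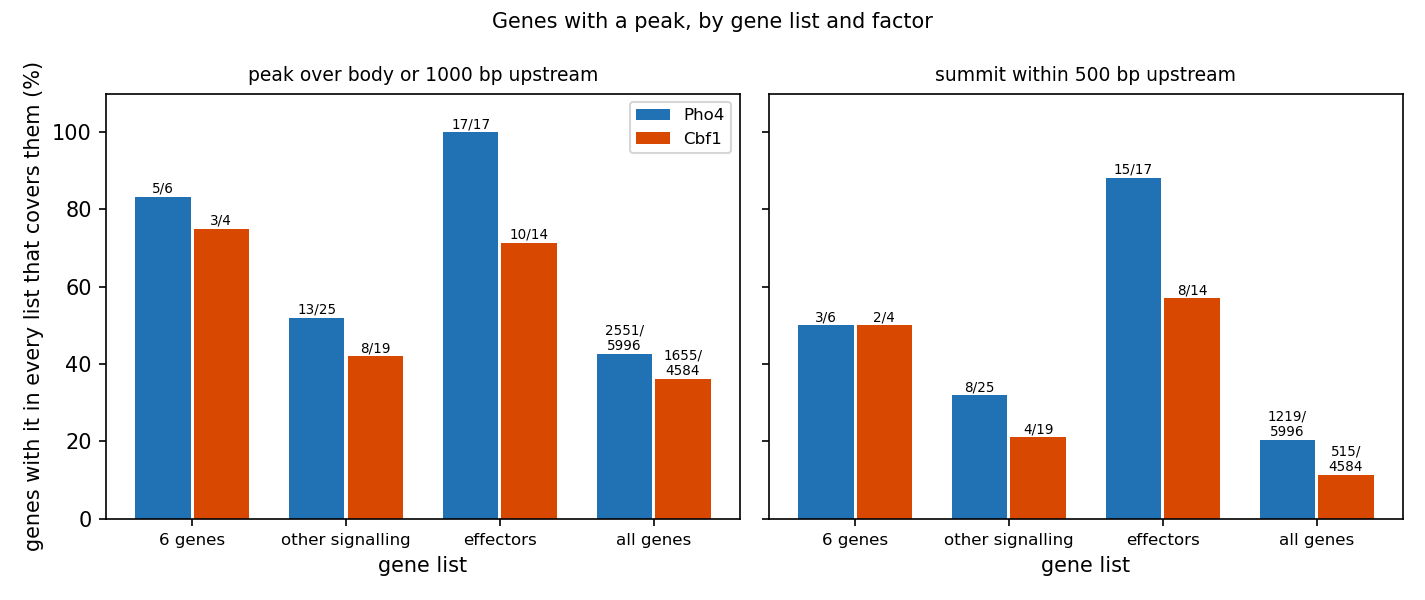
Share of genes (y axis, percent, with the counts above each bar) that had a peak over the body or 1000 bp upstream (left) or a summit within 500 bp upstream (right) in every list of the factor that covers them, for the 6 genes, the other signalling genes, the effectors and all genes. For Pho4 the share of signalling genes is 52% (13 of 25) on the left, beside 42.5% of all genes. On the right it is 32% beside 20.3%. All 17 effectors, listed with earlier results of these data known, have a peak on the left.

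The genes most like PHO81 and SPL2 were sought by the highest fold percentile in the 3 lists that cover them, among 4582 and 4581 genes that share no peak with them. For PHO81 they were ECL1, YGR146C-A and NAT2, neighbours on chromosome VII that share the same peaks, with percentiles of 98.4, 98.2 and 84 and a distance of 0.396 percentile points. For SPL2 they were VTC4, a polyphosphate polymerase gene (99.5, 99.5 and 88.3), QRI7 (99.4, 99.6 and 88.1) and PDR8 (99, 99 and 88.9), at distances of 0.647, 0.746 and 1.31. BOP2 shares the peak of PDR8 and tied with it. The QRI7 peak is the one nearest to PHO2.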

How the data were processed

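Each library had its own peak list in narrowPeak layout, and no list of pooled replicates was used here. Reads were processed with cutadapt 1.8.1, Bowtie 1.1.2, SAMtools 1.3.1, bedtools and MACS2 2.1.1 on build sacCer3, per the submitters' processing notes. The deposited columns are a score, a fold, and −log10 p and −log10 q values that the authors' caller gave. The fold was taken as the ratio of summit height to local background, with the same small count added to each. All of these columns were used only within a list. A whole-number summit height was found from fold and −log10 p under a Poisson background, which succeeded for 99% to 99.7% of peaks. It also returned 100.0% of 300 heights simulated with the same formulas, which checks the inversion and not how the authors' caller computed its values. Read depth is not part of the lists, and heights and their 95% intervals stand in for it. Mitochondrial peaks (21, 20, 13 and 9) were left out. Sequence past a list's last peak was treated as not analysed there. Coordinates are 1-based. No peak ended past a chromosome of the reference and 10 peak ends equalled a chromosome end. Motifs were searched on both strands. A CACGTG cannot overlap a CACGTT on either strand.

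The text names all 6 genes with each of their peaks, and every listed signalling and effector gene. In each of the latter lists the 3 genes highest in mean Pho4 fold percentile have values, as do the 3 genes most like PHO81 and SPL2 by Euclidean distance of percentiles. CBF1 is also given with values, chosen after they were seen. Members and lists were chosen with earlier results of these data known. No p-values were computed, since peak calls of 2 libraries per factor are described and not tested. Alternatives were a summit in the window, 1000 bp upstream only, a summit within 500 bp, windows ended at the next gene, nearest start, the upper 50% of each list, lists of equal density, motif windows of 25 and 100 bp, the core alone, and each library left out. Python 3.11.15, numpy 2.4.6, pandas 2.3.3, scipy 1.17.1 and matplotlib 3.10.9 were used.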

Additional observations from a re-analysis of the deposited data

How the results depend on the processing

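Of 151 recomputed values, 126 stayed within 1.5 times the reported one. The others were as follows. The background given here is the share of genes covered by both lists of a factor that had a peak in both. Counts of genes take every covering list, which is easier to meet for a gene covered by 1 list. With the 1000 bp upstream alone, Pho4 had peaks at 3 of 6 genes, beside 33.6% of all genes in both lists. With a summit within 500 bp upstream it was also 3, with 8 signalling genes for Pho4 and 4 for Cbf1, and a background of 19.1% and 9.97%. When each peak went only to the nearest start, Pho4 had 3 of 6 genes, Cbf1 1 of 4, and 6 of 16 pairs had a peak, with a background of 26% and 20.1%; PHO4 and PHO80 then had a peak in 0 lists. PHO4 had a peak in 2 of 4 lists when the summit had to lie in the window, with upstream sequence only, or with a summit within 500 bp. With the upper 50% of each list, 5 signalling genes had Cbf1 peaks and the Pho4 background was 25.4%. PHO85 had no peak with that list, upstream sequence only or a summit within 500 bp.

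With a library left out, Pho4 had peaks at 3 to 5 genes, Cbf1 at 1 to 3, and pairs with a peak numbered 7 to 11. Signalling genes with Cbf1 peaks numbered 3 to 11. Without Pho4 replicate 2 these were 3 of 4 genes and 7 of 10 pairs, and without Cbf1 replicate 2 Cbf1 had 1 of 2 genes and 3 of 13 signalling genes. Within 25 and 100 bp, 7 and 11 of 16 summits had a motif. PHO80 and PHO85 rest on 1 library. No paired analysis was possible because the results come from no test.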
